A study of Mus musculus with 6 samples.

Results

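The p53 pathway was followed in mouse C2AS12 cells, myoblasts of the C2 lineage, through 7 listed genes: Trp53, which encodes p53, and its targets Mdm2, Sesn1, Btg2, Ccng1, Perp and Fas. Every probe set annotated to a single one of these symbols was taken. That gave 7 probe sets for 6 genes, of 12488 probe sets and 8252 genes on the array; no probe set was annotated to Trp53 alone, so p53 mRNA itself was not analysed here. Fas had 2 probe sets, one of them among the array's control probe sets, and each of the other genes had 1.

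All cells had been infected with recombinant adenovirus encoding p300, a histone acetyltransferase and coactivator. The 3 treatments were wild-type p300 in the presence of doxycycline, mutant p300 without doxycycline, and wild-type p300 without doxycycline. Each was measured after 24 h in low-serum differentiation medium and at 0 h, before that medium was added, with 1 array of total RNA for each treatment and time, 6 arrays in all. The submitters give apoptotic death as the outcome with doxycycline and with mutant p300, and survival with wild-type p300. Which mutation p300 carried, and what doxycycline did to the cells, is not in the labels. No uninfected culture is among the 6, and no probe set was annotated to Ep300 alone, so the level of p300 mRNA was not checked. The submitters call the arrays biological replicates, but no treatment and time has more than 1 array, and the p-values below measure only the spread between these 6 samples, which may in part be technical.

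p53 is a transcription factor that is held low by the ubiquitin ligase MDM2 and is stabilised by DNA damage and other stress. It binds DNA as a tetramer at a pair of adjoining decamers, recruits acetyltransferases such as p300, which also acetylate it, and switches on genes of cell cycle arrest, repair, antioxidant defence and apoptosis. Mdm2 is itself one of these genes, which closes a negative feedback loop, and in myoblasts the p53 target p21 can also be induced without p53 as the cells leave the cycle.

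Values are array signals on a linear scale, brought to a common level by the submitters: the trimmed mean was 200.1 on each array and the median lay between 68.7 and 78.0. A floor of 16.4 (25th percentile of the values) was applied before log2 was taken, and 6212 probe sets with a mean signal of at least 75.2, the median of that mean, were tested. Mdm2, Sesn1, Btg2 and Ccng1 were among them, each with a mean signal above that of at least 87.8% of the probe sets, while Perp (mean 42.1) and Fas (21.4, and 45.3 for the control probe set) were too dim to be tested and are given as values. Of 8 myoblast markers, 7 had a probe set and all 7 passed that filter, with a summed signal of 3138.1 to 3773.0 at 24 h and 2178.9 to 2448.3 at 0 h. The fibroblast list summed to 5186.1 to 5792.7 at 24 h and 3814.5 to 4788.1 at 0 h, nearly all of it from the collagen gene Col1a2, so that both lists were higher at 24 h; their part in the changes over time was not tested. The fibroblast markers Dpt and Thy1, the leukocyte markers Adgre1, Ptprc and Lyz2, the endothelial marker Cdh5 and the epithelial marker Epcam were under 16.4 on all 6 arrays. Of the other marker lists, 3 of 5 fibroblast, 2 of 6 leukocyte, 0 of 5 endothelial, 1 of 5 epithelial and 1 of 4 adipocyte genes passed the filter, among them Cd14 (322.4 to 416.6 over the 6 arrays) and Cdh1 (142.7 to 230.8). Their summed signals at 24 h and 0 h were 489.2 to 589.8 and 576.0 to 680.5 for leukocytes, 80.2 to 249.7 and 68.7 to 138.9 for endothelium, 244.2 to 252.9 and 194.7 to 286.7 for epithelium, and 258.7 to 347.9 and 271.9 to 372.7 for adipocytes. Relative to the average array, 9 spike-in controls read 0.13 (doxycycline) and 0.23 (mutant) at 24 h on the log2 scale against -0.18 (wild type), and lay between -0.13 and -0.02 at 0 h.

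**Figure D1:**
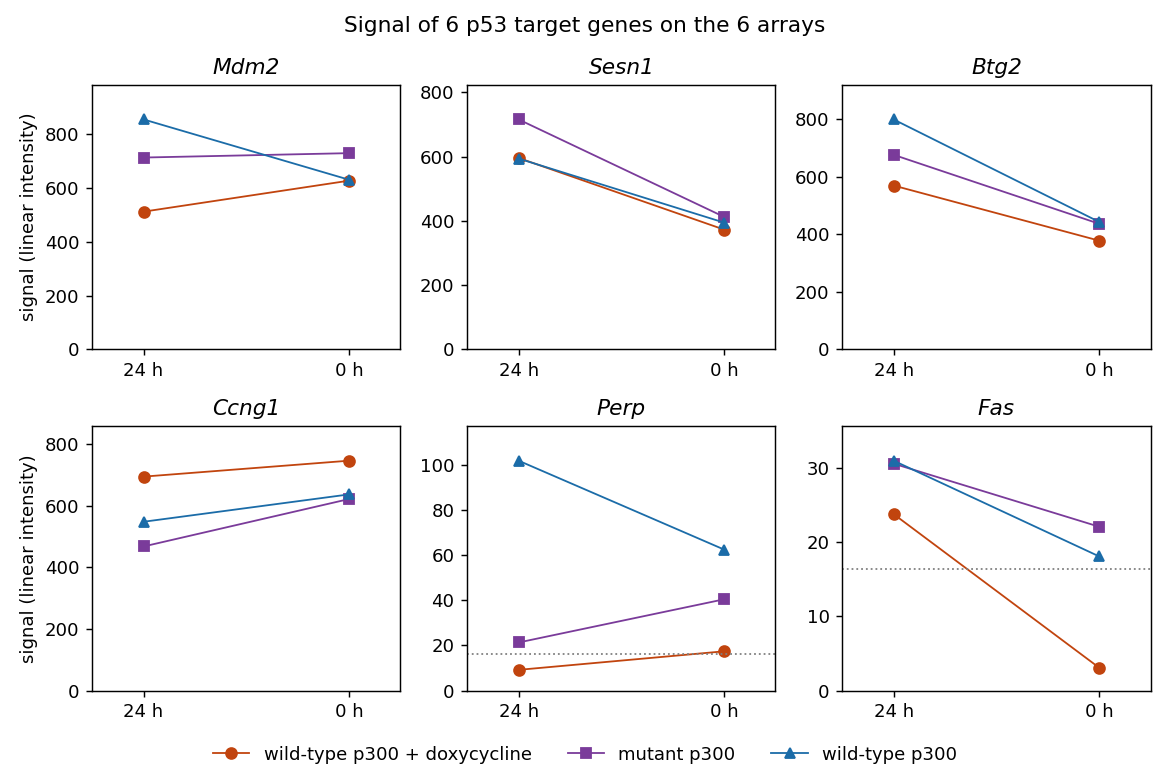
Signal (linear intensity) of the 6 genes at 24 h and 0 h in the 3 treatments, 1 array per point with a line joining each treatment; Fas is its non-control probe set, and the dotted line in the panels of Perp and Fas is the floor of 16.4. All 3 arrays at 24 h lay above all 3 at 0 h for Sesn1 and Btg2, and the wild-type arrays had the highest Perp signal at both times.

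Sesn1 and Btg2 were the tested members called higher at 24 h. Sesn1, a sestrin, restrains mTORC1 signalling and is induced by p53 and by FOXO factors. It read 595.9, 715.8 and 594.0 with doxycycline, mutant p300 and wild-type p300 at 24 h, against 372.9, 412.5 and 394.7 at 0 h in the same order of treatments. The groups of the times did not overlap, and the change was alike in the 3 treatments: the mean was 0.69 ± 0.10 on the log2 scale (SD of the change over 3 treatments), 1.61-fold, with a 95% interval of 0.47 to 0.90 and limma adjusted p = 0.00221. Btg2, an antiproliferative adaptor of the mRNA deadenylation machinery, read 568.9, 675.6 and 798.4 at 24 h, against 377.6, 436.2 and 442.7 at 0 h. Here too every array at 24 h lay above every array at 0 h, with a mean change of 0.69 ± 0.14 (SD, n = 3), also 1.61-fold (interval 0.47 to 0.91, limma adjusted p = 0.00248).

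These were 2 of the 4 members tested, beside 16.2% of all probe sets called in either direction and 7.24% called higher. The share of all probe sets whose times did not overlap was not counted, here or for the genes below. Both calls held in each of 6 fits that left out 1 array, with adjusted p up to 0.0345 for Sesn1 and 0.0251 for Btg2. They were lost when dim probe sets were also tested (adjusted p = 0.092 and 0.116, with 0 of 12422 probe sets called by limma and 2030 at an unadjusted p under 0.05) and on scaling to the spike-in controls, which moved the median change of all probe sets by -0.12 (adjusted p = 0.0679 for Sesn1 and 0.0639 for Btg2). Cells kept for 24 h in growth medium were not measured, so the medium and the time in culture cannot be told apart. Nor can fewer cells of a kind and less RNA per cell be told apart in such bulk samples.

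Ccng1 and Mdm2 were not called over time. Ccng1 encodes cyclin G1, which brings the phosphatase PP2A to MDM2. It read 693.8, 467.4 and 547.5 at 24 h with doxycycline, mutant p300 and wild-type p300, against 745.5, 621.2 and 636.2 at 0 h. The value at 24 h was the lower one within each treatment, yet the times overlapped, and the mean change was -0.24 ± 0.16 (interval -0.47 to -0.02, limma adjusted p = 0.130). Mdm2, whose product targets p53 for degradation, read 511.8, 712.9 and 854.5 at 24 h, against 627.0, 729.2 and 630.4 at 0 h. Its changes were -0.29 with doxycycline, -0.03 with mutant p300 and 0.44 with wild-type p300, so that the mean of 0.04 ± 0.37 (SD, n = 3) stood for no single treatment (interval -0.27 to 0.35, adjusted p = 0.888).

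Fas, the death receptor that recruits FADD and caspase-8, was dim throughout. Its probe set read 23.8, 30.6 and 31.0 at 24 h, against 3.1, 22.1 and 18.1 at 0 h, in the order doxycycline, mutant and wild type. The 3 values at 24 h lay above the 3 at 0 h. With the floor applied the log2 change was at least 0.54 with doxycycline, where the array at 0 h was under the floor, 0.47 with mutant p300 and 0.78 with wild-type p300. The control probe set of Fas read 47.3, 50.8 and 53.2 at 24 h, against 40.2, 41.8 and 38.6 at 0 h. It again separated the times, with a smaller mean change of 0.33 ± 0.12 (SD, n = 3). Neither was tested. With all 12422 probe sets in the fit, the first gave a change of 0.59 with limma adjusted p = 0.142.

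**Figure D2:**
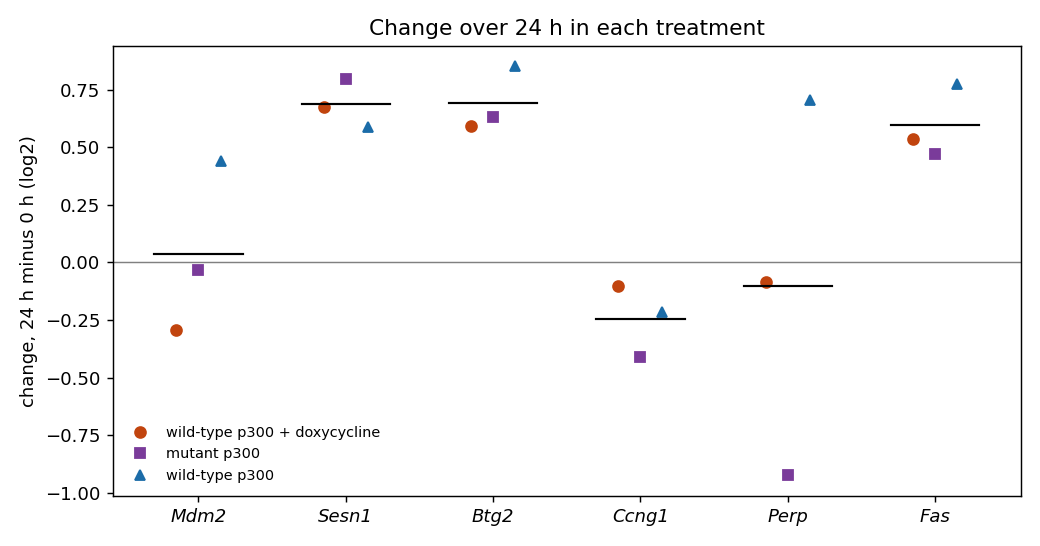
Log2 change of each gene, 24 h minus 0 h, in each treatment (points) and their mean over the 3 treatments (short lines), with signals under 16.4 set to it. The 3 changes lie close together for Sesn1 (0.59 to 0.80) and Btg2 (0.59 to 0.85), and spread on both sides of 0 for Mdm2 (-0.29 to 0.44) and Perp (-0.92 to 0.70).

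The promoters of Sesn1 and Btg2, which rose together, and of Ccng1, which was not called, are shown so that their sequence can be read beside these values. Of the 6 genes with a probe set, 5 had an entry among the RefSeq promoter windows (GRCm38.p6, 250 bases before to 50 after a start site), with 2 windows for Sesn1, and Perp had none. A search on both strands for a pair of adjoining p53 decamers with at most 3 mismatches over its 20 bases, which was added after the sequences had been seen, is marked in capitals. The pair reads the same on both strands, and positions are those of its leading base relative to the start site.

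The Sesn1 window at chr10:41810324-41810623 (plus strand) held no such pair.
Sesn1, upstream window: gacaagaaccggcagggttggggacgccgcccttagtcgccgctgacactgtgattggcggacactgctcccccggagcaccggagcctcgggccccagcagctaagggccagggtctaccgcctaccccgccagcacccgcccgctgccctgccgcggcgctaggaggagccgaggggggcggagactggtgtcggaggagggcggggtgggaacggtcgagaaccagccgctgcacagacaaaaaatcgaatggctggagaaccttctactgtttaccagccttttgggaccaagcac
The Sesn1 window at chr10:41887189-41887488 (plus strand) held 1 pair, at -173, with 3 mismatches.
Sesn1, downstream window: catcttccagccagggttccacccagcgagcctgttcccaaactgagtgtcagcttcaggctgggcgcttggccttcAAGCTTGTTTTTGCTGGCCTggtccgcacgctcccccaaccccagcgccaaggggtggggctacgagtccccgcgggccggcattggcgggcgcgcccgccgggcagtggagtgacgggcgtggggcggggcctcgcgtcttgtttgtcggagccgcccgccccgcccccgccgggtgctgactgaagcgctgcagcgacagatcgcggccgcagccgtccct
The Btg2 window at chr1:134079106-134079405 (minus strand) held none.
Btg2: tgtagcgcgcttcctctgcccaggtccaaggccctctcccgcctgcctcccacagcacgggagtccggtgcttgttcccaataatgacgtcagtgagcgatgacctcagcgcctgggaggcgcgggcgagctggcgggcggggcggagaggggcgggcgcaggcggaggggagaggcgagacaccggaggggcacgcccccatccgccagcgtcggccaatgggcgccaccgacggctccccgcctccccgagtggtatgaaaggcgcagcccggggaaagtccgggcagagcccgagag
The Ccng1 window at chr11:40755237-40755536 (minus strand) held 2 pairs, at -195 with 1 mismatch and at -142 with 3.
Ccng1: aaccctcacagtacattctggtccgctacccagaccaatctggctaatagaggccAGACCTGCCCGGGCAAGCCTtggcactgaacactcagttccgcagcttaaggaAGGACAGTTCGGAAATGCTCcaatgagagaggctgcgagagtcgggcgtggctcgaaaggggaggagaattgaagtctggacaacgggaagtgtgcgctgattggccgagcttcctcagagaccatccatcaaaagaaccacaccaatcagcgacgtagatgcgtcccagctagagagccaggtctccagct

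Such a pair was present in 6.29% of 32851 windows of the same length. The windows of Mdm2 and Fas held none. The strict core, CATG and CATG with any 6 bases between them, was found in 0.712% of all windows and in 0 of the 6 windows of these genes, and the loose core, CNNG and CNNG spaced likewise, in 70.2% of all windows, and here in each but that of Fas. A match is a description of letters and not a binding site. Among the genes shown, the closest match stood before Ccng1, whose signal was not called higher or lower at 24 h.

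The comparison of doxycycline and mutant p300 with wild-type p300 asked how the pathway differed between the treatments with the opposite outcomes. Perp differed most in size among the members. It encodes a small tetraspan membrane protein of desmosomes, named as an effector of p53-dependent apoptosis. It read 9.2 with doxycycline and 21.3 with mutant p300 at 24 h, against 101.7 with wild-type p300. At 0 h it read 17.4 with doxycycline and 40.4 with mutant p300, against 62.4 with wild-type p300. Both wild-type arrays were the highest of their time, and all 4 other arrays lay below both of them. How many of all probe sets had this order was not counted. At 24 h the signal was at least 6.20-fold lower with doxycycline, whose array was under the floor, and 4.77-fold lower with mutant p300; at 0 h it was 3.59-fold and 1.54-fold lower.

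Perp lay under the filter on dim probe sets and had no test there. With all 12422 probe sets in the fit its log2 difference from wild type over both times was -2.24 ± 0.50 (SE) with doxycycline (limma adjusted p = 0.450, unadjusted p = 0.0252) and -1.44 ± 0.50 with mutant p300 (adjusted p = 0.520, unadjusted p = 0.0706). At 24 h the mean of both treatments differed from wild type by -2.44 ± 0.67 (adjusted p = 0.478). The difference failed the correction in each of these tests. With log2 of the value plus 32 in place of the floor it was -1.32 with doxycycline and -0.85 with mutant p300 over both times, and -1.51 at 24 h. Leaving out 1 array gave -1.63 (without wild type at 24 h) to -2.84 (without wild type at 0 h) for doxycycline, and -0.82 (without mutant at 24 h) to -2.06 (without mutant at 0 h) for mutant p300. The 4 array pairs behind these values share 2 wild-type arrays, and the doxycycline signals of 9.2 and 17.4 lay under or near the floor. The 3' to 5' signal ratio for actin, which reflects RNA quality, was 1.45 (doxycycline) and 1.49 (mutant) at 24 h against 1.33 (wild type). At 0 h it was 1.30 and 1.34 against 1.33. Measured on Gapdh instead, wild type at 24 h (0.875) lay between doxycycline (0.859) and mutant p300 (0.905). The Gapdh values at 0 h were 0.855 with doxycycline and 0.856 with mutant p300, against 0.867 with wild type. The part of RNA quality in the result was not tested.

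Mdm2 differed between treatments at 24 h only in size, without passing a test. The array at 24 h read 511.8 with doxycycline and 712.9 with mutant p300, against 854.5 with wild type, while the arrays at 0 h read 627.0 and 729.2, against 630.4. The difference of the mean of both treatments from wild type at 24 h was -0.50 ± 0.22 (SE; interval -1.01 to 0.01, limma adjusted p = 0.449), beside 0.773% of all probe sets called in that comparison. Leaving out 1 of the 2 treatments at 24 h set 1 array against 1 at that time. Without the mutant array the doxycycline array differed from wild type by -0.74, and without the doxycycline array the mutant array differed by -0.26. Scaling to the spike-in controls gave -0.87 with limma adjusted p = 0.0288. There the median of all probe sets was itself moved by -0.37, and 419 of 6211 probe sets were called. The test of whether the change over 24 h differed between the outcomes gave -0.60 ± 0.32 for Mdm2 (limma unadjusted p = 0.0913, adjusted p = 0.999995). That interaction was called for 0 of 6212 probe sets (0%) by limma, with 197 at an unadjusted p under 0.05.

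Btg2 was lower than wild type with doxycycline at both times, by 0.49 on the log2 scale at 24 h and by 0.23 at 0 h. Over both times the difference was -0.36 ± 0.12 (SE; interval -0.63 to -0.09, limma adjusted p = 0.187), and with mutant p300 it was -0.13 ± 0.12 (adjusted p = 0.606). Ccng1 ran the other way with doxycycline, at 0.29 ± 0.12 (interval 0.01 to 0.56, adjusted p = 0.279), and was at -0.13 ± 0.12 with mutant p300 (adjusted p = 0.606). The doxycycline array had the highest Ccng1 signal at each time. Sesn1 differed by -0.04 ± 0.12 with doxycycline (interval -0.30 to 0.23, adjusted p = 0.910) and 0.17 ± 0.12 with mutant p300 (interval -0.10 to 0.43, adjusted p = 0.487). None of the 4 tested members was called in either comparison over both times, where 1.13% of all probe sets were called for doxycycline and 0.225% for mutant p300. Both comparisons share the wild-type arrays. For Mdm2 the difference over both times was -0.37 ± 0.17 with doxycycline (interval -0.76 to 0.01, adjusted p = 0.304) and -0.03 ± 0.17 with mutant p300 (adjusted p = 0.951). With doxycycline, Mdm2 and Btg2 were each called lower in 1 of 6 fits that left out an array, and their values ran widest between the fits without 1 of the wild-type arrays. Without the one at 0 h they were -0.67 (adjusted p = 0.00436) for Mdm2 and -0.48 (adjusted p = 0.0475) for Btg2, and without the one at 24 h they were -0.07 (adjusted p = 0.970) and -0.24 (adjusted p = 0.713).

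**Figure D3:**
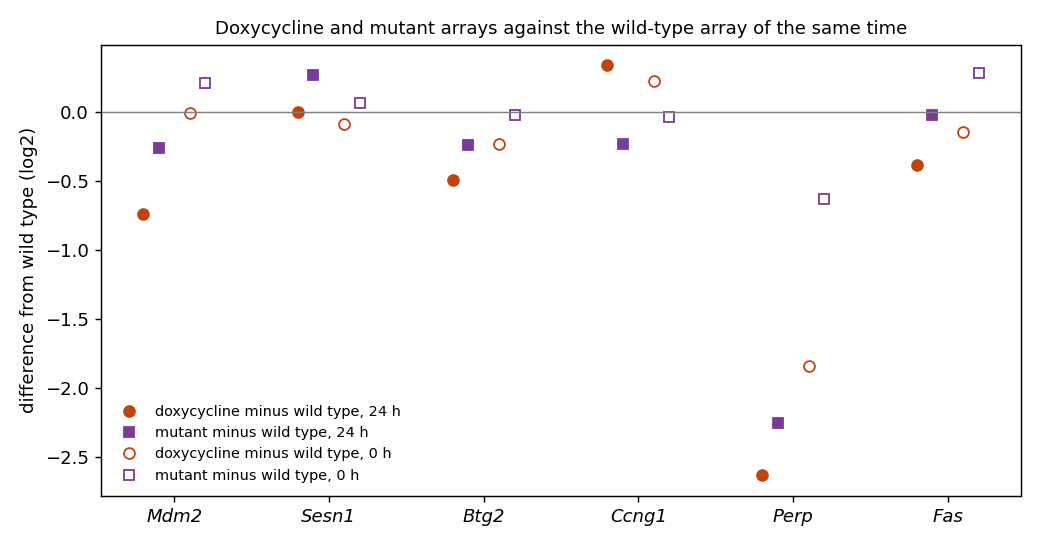
Log2 difference of the doxycycline and mutant arrays from the wild-type array of the same time, 24 h (filled) and 0 h (open), 1 array pair per point, with signals under 16.4 set to it. Perp lies below 0 in all 4 pairs, at -2.63 and -2.26 at 24 h and -1.84 and -0.63 at 0 h, while Sesn1 stays between -0.08 and 0.27.

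Perp belongs to the wider family of PMP22 and the epithelial membrane proteins, whose genes are on the list of relatives. Pmp22, a tetraspan protein of peripheral myelin, read 708.8 and 738.2 with doxycycline and mutant p300 at 24 h, against 1318.2 with wild-type p300, and 943.0 and 855.1 at 0 h, against 1245.9. All 4 arrays lay below both wild-type arrays, as for Perp. Its log2 difference over both times was -0.65 ± 0.13 (SE) with doxycycline and -0.69 ± 0.13 with mutant p300. Neither was called (limma adjusted p = 0.0597 and 0.0834). Emp1 read 2772.5 and 2845.8 at 24 h, against 3740.7 with wild type, and 3584.3 and 3507.1 at 0 h, against 4835.3, with differences of -0.43 for both treatments (adjusted p = 0.109 and 0.129). Emp1 also fell over time, by 0.35 (adjusted p = 0.0390), and Ccng2 rose; the other 10 of 12 tested relatives were not called, and the median change was -0.10. Emp2 and Emp3 did not share that order, with differences over both times of 0.22 and 0.11 for doxycycline and 0.06 and 0.17 for mutant p300 (adjusted p between 0.456 and 0.873).

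**Figure D4:**
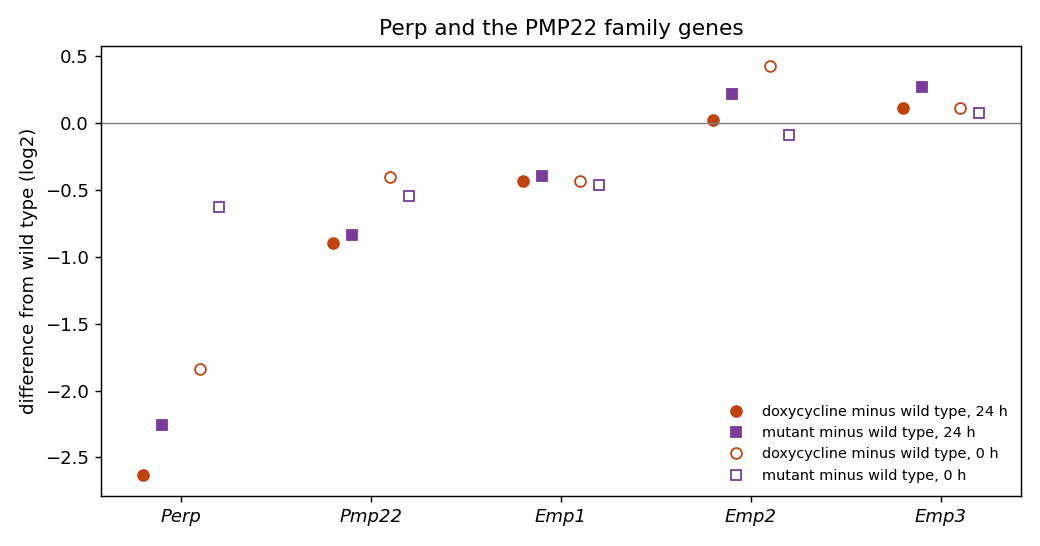
Log2 difference from the wild-type array of the same time for Perp and 4 related genes, for doxycycline and mutant p300 at 24 h (filled) and 0 h (open), 1 array pair per point. All 4 points lie below 0 for Perp, Pmp22 and Emp1, and above 0 in 3 of 4 pairs for Emp2 and in 4 of 4 for Emp3.

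The wider pathway was taken from 7 lists of 141 genes in all, of which 80 were tested. The lists include the members, so the 80 hold the 4 tested members. At 24 h 16 of the 80 were higher and 18 lower, beside 7.67% and 9.33% of all 4822 genes tested. Sesn1 and Btg2, already described, are counted again among the 16. The count of genes that rose was 9 when the 24 h mutant array was left out, 10 when the 0 h one was, and 3 with scaling to the spike-in controls, while the count that fell stayed between 15 and 20 without any 1 array and was 17 with that scaling.

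Of 13 arrest targets tested, 5 rose, 1 fell and 7 missed the threshold; the median change was 0.33 against 0.01 for all genes. Gadd45a, a growth arrest and repair protein, read 1887.0, 2021.3 and 1921.8 with doxycycline, mutant p300 and wild-type p300 at 24 h, against 855.2, 702.5 and 970.1 at 0 h. Every 24 h array lay above every 0 h array, with a mean change of 1.22 ± 0.28 (SD, n = 3; limma adjusted p = 0.000319). Ptprv, a receptor-type phosphatase that takes part in p53-dependent arrest in the mouse, read 252.0, 152.5 and 204.8, against 103.8, 72.8 and 82.8 (1.22 ± 0.13, adjusted p = 0.00128). Cdkn1a, the gene of p21, read 824.9, 900.3 and 1055.3, against 636.7, 523.5 and 611.7 (0.65 ± 0.24, adjusted p = 0.00539). The 24 h arrays lay above the 0 h arrays for all 3 genes, and for Ccng2, an unconventional cyclin related to Ccng1, which rose by 0.48 ± 0.13 (adjusted p = 0.0119). How often this order arises among all genes was not counted. Gtse1, a mitotic protein that binds p53 and holds it in check, fell by 1.17 ± 0.29 (adjusted p = 0.00273). Outside the members, Plk2, Plk3, Btg1, Tob1 and Zmat3 were not called, with changes of 0.02 to 0.34.

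Of 8 targets of apoptosis tested, 1 rose and the other 7 were not called, and the median of the 8 was -0.07. Among all genes tested, 7.67% were called higher and 9.33% lower. The gene that rose was Bcl6, a transcriptional repressor, which read 212.3, 322.0 and 357.1 at 24 h, against 112.3, 73.6 and 153.4 at 0 h (1.42 ± 0.63, adjusted p = 0.00350). Apaf1, the core of the apoptosome, changed by 0.31 and Bak1, a pore-forming BCL2 family member, by -0.33, and neither was called (adjusted p = 0.155 and 0.0734). Against wild type over both times, Bid, the BH3-only protein that links death receptors to mitochondria, was called lower with doxycycline. It read 191.3 with doxycycline and 240.4 with mutant p300 at 24 h, against 385.3 with wild type, and 241.5 and 314.2 at 0 h, against 374.8. The doxycycline array was the lowest at each time, and the difference over both times was -0.82 ± 0.15 (SE, adjusted p = 0.0496), beside 0.85% of genes called lower. With mutant p300 it was -0.47 ± 0.15 (adjusted p = 0.186). No probe set was annotated to Bax, Bbc3 or Pmaip1 alone.

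Of 11 tested targets of stress defence, metabolism and repair, 2 rose, 2 fell and 7 were not called. Their median was 0.01, and the shares over all genes were 7.67% higher and 9.33% lower. Beside Sesn1, Pltp, a phospholipid transfer protein, rose by 0.67 ± 0.03 (adjusted p = 0.00153). Pcna, the replication clamp, read 318.3, 446.9 and 453.5 at 24 h, against 913.9, 1153.0 and 986.5 at 0 h, and fell by 1.34 ± 0.20 (adjusted p = 0.000111). Ddit4, an inhibitor of mTORC1 like Sesn1, fell by 0.39 ± 0.21 (adjusted p = 0.0439), so that these 2 genes of related function were called in opposite directions in the main fit. With scaling to the spike-in controls 0 of the 11 rose and 1 fell. Without the variance trend 2 rose and 1 fell. Xpc, Gpx1 and Rrm2b were not called, at 0.05, -0.05 and 0.41.

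Among targets of the membrane, matrix and signalling, 3 of 10 rose, 1 fell and 6 were not called; the median was 0.34. Cd82, a tetraspanin, rose by 0.62 ± 0.19 (adjusted p = 0.00437) and its second probe set by 1.13. Dusp1, a phosphatase of MAP kinases, rose by 0.70 ± 0.34 (adjusted p = 0.00913) and Notch1 by 0.51 ± 0.24 (adjusted p = 0.0323), while Epha2, an ephrin receptor, fell by 0.49 ± 0.15 (adjusted p = 0.0323). This list also held differences between treatments. Dusp1 read 452.6 and 478.2 with doxycycline and mutant p300 at 24 h, against 1041.4 with wild-type p300, and 300.8 and 354.8 at 0 h, against 494.6. It was called lower at 24 h, by -1.16 ± 0.19 (SE, adjusted p = 0.0305; 0.788% of genes called lower), and with doxycycline over both times, at -0.96 ± 0.16 (adjusted p = 0.0386). Ndrg1, a stress and differentiation gene, read 753.2 with doxycycline and 1452.4 with mutant p300 at 24 h, against 2171.2 with wild type, and 718.9 and 1170.0 at 0 h, against 1283.4. It was called lower with doxycycline, at -1.18 ± 0.16 (adjusted p = 0.0218), and not with mutant p300, at -0.36 ± 0.16 (adjusted p = 0.307); the difference between these 2 treatments was not tested. The second probe set of Ndrg1 gave 702.7, 1283.1 and 1869.0 at 24 h, against 653.3, 1060.4 and 1172.8 at 0 h, in the same order of treatments. Of the 80 genes, Bid, Dusp1 and Ndrg1 were the 3 called in a comparison of treatments. These calls depended on the settings. The 3 genes were among 70 probe sets called for doxycycline. Of those 70, 0 were also called without the filter on dim probe sets, and 2 without the variance trend. Of the 48 called for outcome at 24 h, 6 were also called without the filter.

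Of 16 tested members of the p53 family and its regulators, 5 rose, 0 fell and 11 were not called; the median was 0.25. Yy1, a zinc finger factor that promotes p53 ubiquitination, read 290.9, 339.6 and 286.8 at 24 h, against 192.6, 217.5 and 175.8 at 0 h (0.65 ± 0.06, adjusted p = 0.00572). The acetyltransferase genes Kat2b and Crebbp, whose products act on p53 as p300 does, rose by 0.52 ± 0.10 (adjusted p = 0.00945) and 0.59 ± 0.19 (adjusted p = 0.0167). Cop1, a ubiquitin ligase of p53, rose by 0.54 ± 0.25 (adjusted p = 0.0246) on its brightest probe set. A second probe set of Cop1 changed by 0.29 and was not called (limma adjusted p = 0.114). Trp53bp1, the DNA repair factor 53BP1, named here after its values had been seen, rose by 0.61 ± 0.03 (adjusted p = 0.0474). Mdm4, the partner of MDM2, was not called at 0.47 (adjusted p = 0.0576), nor were the kinases Atm and Chek2, at -0.02 and -0.23. With scaling to the spike-in controls 0 of these 16 were called, and without treatment as a term 1 was.

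Genes repressed downstream of p53 and p21 fell nearly throughout: 13 of 14 fell and 1, Cdc25a at -0.33, was not called; the median was -2.72. They are cell cycle genes that also fall in any cell leaving the cycle. Ccnb2, a mitotic cyclin, read 326.7, 236.5 and 212.2 at 24 h, against 1939.5, 1718.0 and 1643.4 at 0 h, and fell by 2.79 ± 0.20 (SD, n = 3; limma adjusted p = 6.49e-06). Cdk1, the mitotic kinase, fell by 2.76, Cdc20, an activator of the anaphase-promoting complex, fell by 2.92, and Stmn1, a microtubule destabiliser, fell by 2.51. The count of calls was also 13 with scaling to the spike-in controls and without a variance trend, and was 0 with dim probe sets tested as well. None of the 14 was called between treatments, with medians of 0.41 for doxycycline, 0.20 for mutant p300 and 0.04 for all genes in both.

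**Figure D5:**
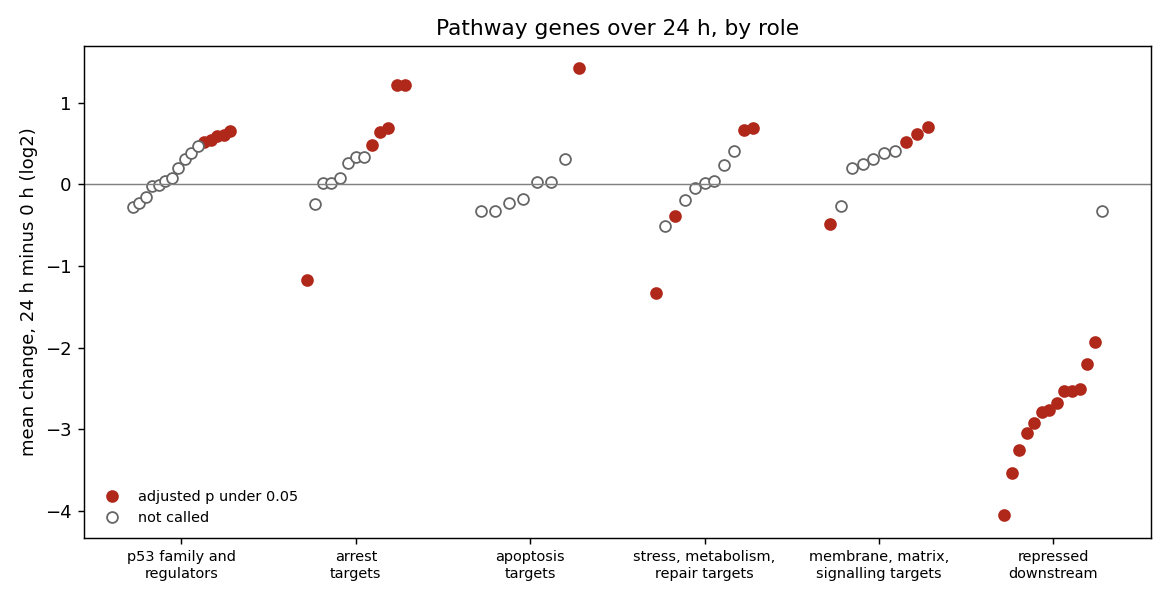
Mean log2 change, 24 h minus 0 h, over the 3 treatments for the tested genes of 6 pathway lists, 1 point per gene; filled points had a limma adjusted p under 0.05. Arrest targets lie mostly above 0 (median 0.33), apoptosis targets around it (median -0.07), and genes repressed downstream of p53 and p21 far below it (median -2.72).

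Of the members tested, Btg2 spanned at least 2-fold over the 6 arrays, and the genes with the most similar profile were named by correlation of log2 signal over the 6 arrays. They were Pptc7, a mitochondrial phosphatase (r = 0.988), and Scp2, a sterol carrier protein (r = 0.985), among 993 probe sets with a span as wide. Pptc7 read 295.2, 386.0 and 463.5 at 24 h, against 219.0, 234.5 and 236.6 at 0 h, in the order doxycycline, mutant and wild type, which is also the order of Btg2 at each time. Of these 993 probe sets, 19 lay above r = 0.95, so the 2 named were not alone, and the 6 arrays share only 2 times. How often such a likeness arises for other genes was not counted.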

How the data were processed

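Total RNA was labelled with biotin and hybridised to 1 oligonucleotide array for each of 3 treatments at 2 times, per the labels' protocols. The deposited values are signal intensity for each probe set on a linear scale; the submitters' processing notes name MAS5, and neither version nor settings are stated in the sources used here. No detection calls were used. Of 12488 probe sets, 66 controls were left out of the fits and 10833 of the remaining 12422 had 1 gene symbol, updated by gene identifier to the RefSeq annotation of GRCm38.p6. A gene with several tested probe sets stood in a list by the brightest.

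The 2-sided tests used limma 3.58.1 under R 4.3.3 (lmFit, then eBayes with a variance trend). P-values were adjusted by Benjamini-Hochberg across the 6212 tested probe sets, with calls at an adjusted p under 0.05. Time and the differences of doxycycline and mutant p300 from wild type came from a fit with treatment and time as terms (2 residual degrees of freedom), so a treatment was treated as having independent arrays at its 2 times. The comparison of both treatments with wild type at 24 h, and its interaction with time, used 1 mean per outcome at each time. The 2 residual degrees of freedom there come from doxycycline against mutant p300, and the lone wild-type array is assumed to vary like them. Treatment and culture cannot be told apart. The fits were also run on simulated data with independent normal noise of the same spread for every probe set. Those data had no variance trend and no values held at the floor. They therefore cannot show how the fits behave where the real arrays have these.

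The members, the lists and the rule for naming genes (members; per list and test up to 4 called genes in each direction by adjusted p; per member spanning 2-fold, the 2 most correlated probe sets) were chosen with earlier results of these data known. Members without a call, uncalled genes given for contrast, the PMP22 relatives, second probe sets and dim genes without a test were named after their values were seen. Alternatives were the filter, the floor (log2 of the value plus 32), quantile normalization, scaling to spike-in controls, the variance trend, treatment as a term, and each array left out.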

Additional observations from a re-analysis of the deposited data

Results flagged for a closer look

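For Perp, the sign of the difference between 24 h and 0 h was negative with doxycycline and mutant p300 and positive with wild-type p300, in 1 pair of arrays each. Its log2 difference was -0.09 with doxycycline and -0.92 with mutant p300, against 0.70 with wild-type p300, a difference of -1.21 between the mean of both and wild type. In the fit limited to brighter probe sets this difference was not tested, because Perp lay under the filter; with all probe sets in the fit it had a standard error of 0.95 and limma adjusted p = 1. The doxycycline array at 24 h was under the floor of 16.4, so that its value of -0.09 is set by the floor.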

How the results depend on the processing

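The rise of Sesn1 and Btg2 over 24 h kept its direction under every alternative run, with calls lost under the unfiltered fit and the spike-in scaling. For all probe sets, 1009 were called for time, 70 for doxycycline, 14 for mutant p300, 48 for outcome at 24 h and 0 for the interaction. Without the filter these counts were 0, 4, 0, 192 and 245, and 0 pathway genes were called in either direction. They were mostly other probe sets: 0 of the 4 for doxycycline and 6 of the 192 for outcome at 24 h were also called in the main fit. With spike-in scaling the counts in the same order were 620, 187, 125, 419 and 1, with 3 pathway genes higher. Without the variance trend, doxycycline gave 2, mutant p300 0 and outcome at 24 h 11, and with no floor doxycycline gave 111. Quantile normalization gave 3 for mutant p300. Without the replicate block, that is without treatment as a term, time gave 514 and 9 pathway genes were higher; the block here is the treatment, since the labels number no replicates. Leaving out 1 array in turn gave 479 to 1283 for time, 4 to 617 for doxycycline, 0 to 413 for mutant p300, 45 to 351 for outcome at 24 h, 6 to 43 for the interaction, and 9 to 16 pathway genes higher. Outcome at 24 h was not run without the wild-type array at 24 h, nor the interaction without either wild-type array, since no wild-type value is then left. The lowest count for time came when the 24 h mutant array was left out, and the highest for doxycycline and mutant p300 without the wild-type array at 0 h. The cause of these shifts was not tested. The signal near the floor limits what can be read from Perp and Fas.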

Other observations

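Of the pseudogene of p53, Trp53-ps, 2 probe sets were on the array. One read 64.5, 64.3 and 57.9 with doxycycline, mutant p300 and wild-type p300 at 24 h, against 80.9, 54.6 and 56.9 at 0 h, and the other 213.3, 166.9 and 180.7, against 213.0, 225.2 and 183.8. The times overlapped for both, and whether either also reads Trp53 mRNA was not tested.

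Several dim pathway genes that were not tested moved by treatment or time in single arrays. Casp8, the initiator caspase of death receptors, read 60.6 and 47.1 with doxycycline and mutant p300 at 24 h, against 26.7 with wild type, while the arrays at 0 h read 72.1 and 64.6, against 65.4. Chek1, a checkpoint kinase, read 32.5, 28.7 and 39.3 at 24 h, against 99.1, 88.9 and 110.6 at 0 h. Ctsf, a lysosomal protease, read 85.5, 71.6 and 76.2 at 24 h, against 21, 38.6 and 33.5 at 0 h. Casp1, the inflammatory caspase, was highest with doxycycline at both times, at 87.7 with doxycycline and 50.2 with mutant p300 at 24 h, against 39.9 with wild type, and 80.0 and 49.4 at 0 h, against 43.4.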
